A study of Mus musculus with 3 samples.

Results

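The cells described here are endothelial cells of digested mouse arteries in which no Cd74 transcript was counted. Cd74 encodes the invariant chain, a chaperone that guides MHC class II molecules (chromosome 18, 60803848 to 60812652, plus strand, GRCm38). A cell was a member if it had 500 or more unique molecular identifiers (UMIs, each marking 1 captured transcript) and 300 or more genes, with mitochondrial genes giving no more than 15% of UMIs. It also had to hold a UMI of 3 or more of the endothelial genes Pecam1, Cdh5, Egfl7, Ptprb, Vwf and Cytl1, less than 1% of its UMIs from the contractile genes Acta2, Tagln, Myh11 and Cnn1, and 0 UMIs of Ptprc and of Cd74. The rule found 131 cells in the sunitinib library and 42 in the vehicle library, 173 of the 8095 cells of these libraries that passed the filters on depth and mitochondrial share. They were 173 of 338 endothelial cells chosen by the same rule without its Cd74 part, of which 165 held Cd74. Since measured values chose the members, the absence of Cd74 and the presence of the endothelial markers are descriptions and not findings.

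Vascular tissue came from wild-type (WT) mice that received sunitinib or its vehicle, labelled TKI and Control, at a time point labelled 3 weeks. Sunitinib is a tyrosine kinase inhibitor of VEGF and PDGF receptors, given against tumours. Each group was 1 library of transcript 3' ends, and the labels give neither the number or strain of mice, nor their sex or age, nor the dose. A further library, from mice given sunitinib and Yoda1, is not compared here. The sunitinib library held 4506 barcodes with 66769480 UMIs and the vehicle library 4491 barcodes with 73901343 UMIs. The libraries shared 3 barcodes, none of them a member's. With 1 library in each group no difference has a replicate check, no test was made, and every interval is a 95% interval for counting error only.

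Arteries are lined by a single layer of endothelium that senses blood flow, keeps clotting in check and sets vessel tone, in large part through nitric oxide made by the synthase Nos3. Steady flow sustains the transcription factors Klf2 and Klf4, whereas stretch and disturbed flow act on the coactivators YAP and TAZ, which work through TEAD factors on genes such as Ccn1 and Ccn2. Interferon-gamma brings out MHC class II genes in endothelium through the coactivator Ciita, together with guanylate-binding proteins and other defence genes.

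The marker genes of large-vessel endothelium were present, as the name of these cells says. Of Cytl1, a cytokine-like gene of arterial endothelium, members had 6471 CPM (UMIs scaled to a common sum of 1000000 per library) with sunitinib and 7099 CPM with vehicle. Pecam1, a junctional adhesion gene, stood at 3747 CPM with sunitinib and 3641 CPM with vehicle. Vwf, which carries platelets to injured wall, stood at 1006 and 1089 CPM, and Cdh5, the cadherin of endothelial junctions, at 527 and 643 CPM, in the same order of libraries. Smooth muscle cells of the same libraries held 0 UMIs of these 4 genes, because their own rule asked for none. Bmp4, a growth factor of arterial endothelium that the rule did not use, stood at 1233 CPM with sunitinib and 798 CPM with vehicle, against 2.39 and 2.91 CPM in smooth muscle cells. Macrophage markers were almost absent, with 1 UMI of 14 genes in the sunitinib members and 0 in the vehicle members. T and B cell markers had 0 and 1 UMIs of 10 genes.

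Capillary cells were rare but not absent. Of 8 capillary markers, 119 of 131 sunitinib members and 37 of 42 vehicle members held none, and no sunitinib member held more than 1. A single vehicle member held 6 of the 8 and gave every vehicle UMI of Cd36 and Gpihbp1, genes of capillary lipid uptake. Summed over 16 capillary genes, members had 230 CPM with sunitinib and 870 CPM with vehicle, and the detected genes numbered 7 and 11. The 16 contractile smooth muscle genes listed summed to 2370 CPM in sunitinib members and 1168 CPM in vehicle members. By these genes, RNA of the smooth muscle profile made up an estimated 3.02% of the members' UMIs with sunitinib and 1.48% with vehicle. Gm42418, a transcript that overlaps ribosomal RNA sequence, stood at 84338 CPM in sunitinib members and 112782 CPM in vehicle members. Alternatives left out the vehicle member with 6 capillary markers or subtracted free RNA of the smooth muscle profile. Beyond these, the part of these differences in the results below was not tested unless a value is given beside a result.

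Endothelial cells without a Cd74 UMI made up 68.9% of endothelial cells with sunitinib (131 of 190; exact binomial interval 61.8 to 75.4) and 28.4% with vehicle (42 of 148; 21.3 to 36.4). This share is what the rule cut on and is given as a description. Fewer cells miss a transcript when more of each cell is sampled, so it was also set out by depth. Among cells of 12000 or more UMIs, 42.6% lacked Cd74 with sunitinib (28.3 to 57.8; 20 of 47 cells) and 10.5% with vehicle (2.94 to 24.8; 4 of 38 cells). Below 3000 UMIs the shares were 89.4% with sunitinib and 43.5% with vehicle. When every cell was thinned to 3000 UMIs, 74.8% of sunitinib cells (66.9 to 81.7) and 38.4% of vehicle cells (29.8 to 47.5) held none. These values show how the cut fell in each library at each depth, and nothing is read from them. Free Cd74 transcripts were scarce, since 4 of 2772 smooth muscle cells held a Cd74 UMI with sunitinib and 15 of 2513 with vehicle, at median depths of 15691 and 16198 UMIs.

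**Figure D1:**
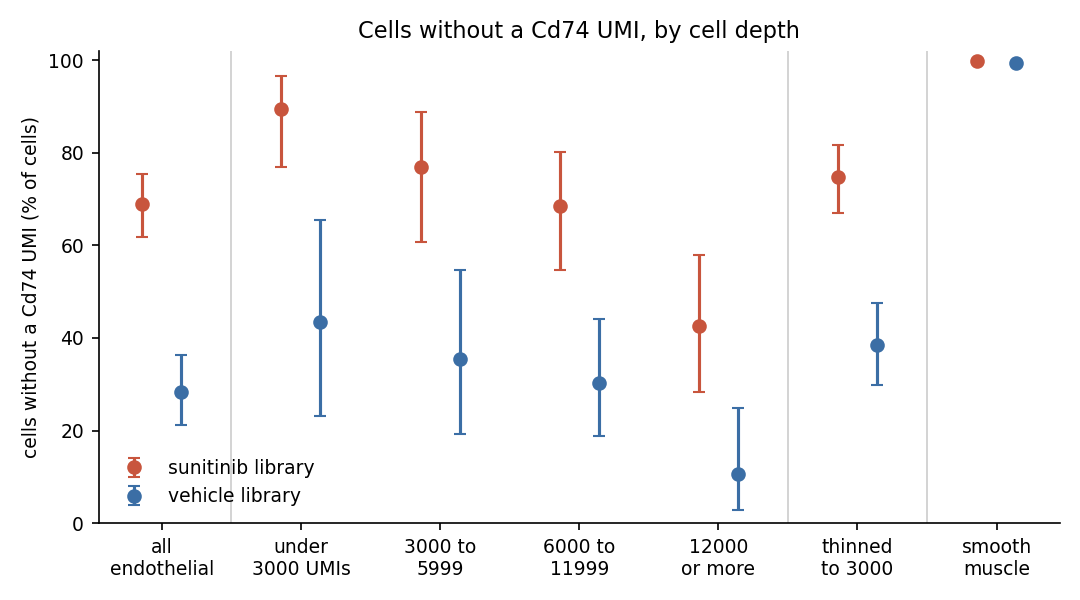
Share of cells without a Cd74 UMI (vertical axis, percent) in the sunitinib library (red) and the vehicle library (blue), for all endothelial cells, for 4 bins of UMIs per cell, after thinning to 3000 UMIs and for smooth muscle cells. Points are shares and bars exact 95% binomial intervals; the share lacking Cd74 was 68.9% with sunitinib and 28.4% with vehicle over all endothelial cells.

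Cells just across the limit carried little Cd74. Of the endothelial cells with Cd74, 16 of 59 with sunitinib and 23 of 106 with vehicle held a single UMI, and the medians were 3 UMIs (range 1 to 78) with sunitinib and 7 UMIs (range 1 to 154) with vehicle. Members were shallower than these cells. The members' median was 5587 UMIs per cell with sunitinib (range 510 to 36393) and 5935 with vehicle (591 to 23806), whereas cells with Cd74 had medians of 10772 and 9181 UMIs. A cell whose few Cd74 transcripts were not sampled counts as a member, and how many members are such cells cannot be told from these counts. Fewer transcribing cells and less Cd74 per cell cannot be told apart at this depth either.

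Other MHC class II genes, which the rule did not use, were low in members of both libraries. H2-Aa, which encodes an alpha chain of the class II molecule, stood at 32.8 CPM in members and 235 CPM in cells with Cd74 in the sunitinib library. In the vehicle library it stood at 57.5 CPM in members and 490 CPM in cells with Cd74. Of the 5 class II genes with at least 50 UMIs in a library, all 5 were lower in members in each library, at a median log2 ratio of -3.03 with sunitinib and -2.47 with vehicle. The beta-chain genes H2-Ab1 and H2-Eb1 had log2 ratios of -3.41 and -3.23 with sunitinib and of -2.74 and -2.40 with vehicle, and H2-DMa, which helps to load peptides, had -3.03 and -2.47. The 5 class II genes detected in sunitinib members summed to 93.7 CPM, and the 6 detected in vehicle members to 237 CPM. Ciita had 0 UMIs in sunitinib members and 2 in vehicle members.

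**Figure D2:**
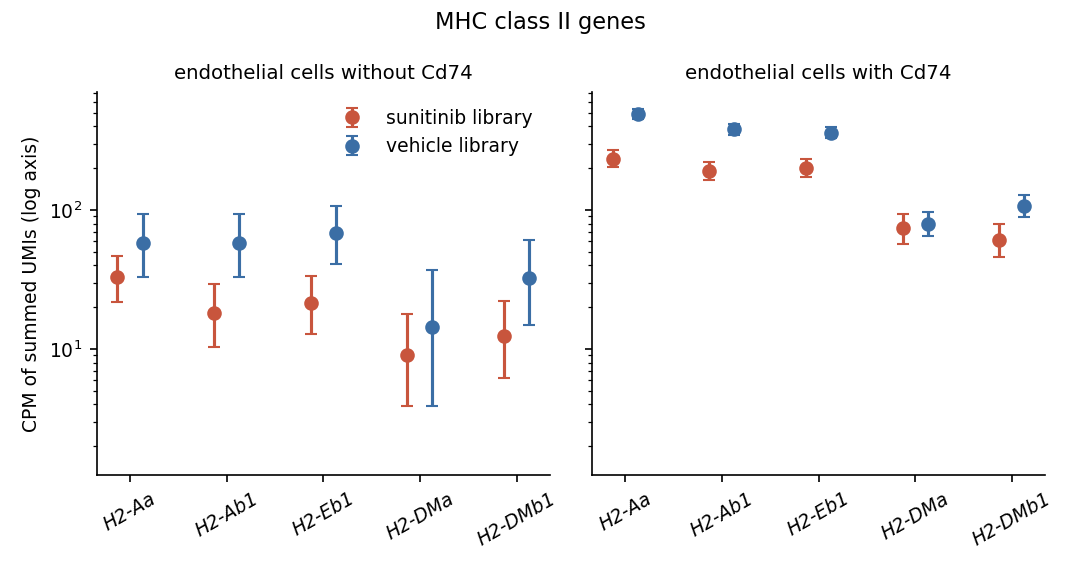
CPM of summed UMIs (log axis) for 5 MHC class II genes in endothelial cells without Cd74 (left panel) and with Cd74 (right panel), in the sunitinib library (red) and the vehicle library (blue). Bars are exact 95% Poisson intervals; every gene lay lower in the cells without Cd74 of the same library, as for H2-Aa at 32.8 and 235 CPM with sunitinib.

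Class II genes were not alone in being lower in members than in cells with Cd74 of the same library. Of 3820 genes with at least 50 UMIs in both libraries, 30 (0.785%) were at least 1.5-fold lower in members in both, and 20 (0.524%) at least 1.5-fold higher. The 30 held the 5 class II genes and, from interferon and peptide-loading genes, Gbp2, Gbp3, Gbp5, Igtp, Tap1 and Ube2l6. Tap1, a subunit of the peptide transporter for class I, stood at 32.8 CPM in members and 68.1 CPM in cells with Cd74 with sunitinib, and at 35.9 and 73.3 CPM with vehicle. Krt18, a keratin, stood at 130 and 297 CPM with sunitinib and at 75.5 and 178 CPM with vehicle. The 20 higher genes held Jag1, a Notch ligand, Frzb, a secreted Wnt inhibitor, and Fgfr3, a fibroblast growth factor receptor. The largest ratio among the 20 was that of Fabp4, a marker on the capillary list. Fabp4 stood at 41.8 CPM in members and 15.9 CPM in cells with Cd74 with sunitinib, and at 413 and 35.8 CPM with vehicle. Gm42418 was another of the 20, at 84338 CPM in members and 53166 CPM in cells with Cd74 with sunitinib. With vehicle it stood at 112782 and 70647 CPM, so that members carried more of this transcript in both libraries. All of these were picked for their values here.

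Interferon and class I genes lay lower in members as groups. Of 27 interferon response genes measured in the sunitinib library, 8 were at least 1.5-fold lower in members and 0 higher, at a median of -0.48. Of all 4654 genes there, 4.43% were as much lower and 3.33% as much higher, and their median was -0.04. In the vehicle library 8 of 31 were lower and 1 higher, at a median of -0.27. Of all 3899 genes there, 11% were as much lower and 6.33% as much higher, and their median was -0.05. Class I and peptide-loading genes had medians of -0.39 with sunitinib and -0.44 with vehicle, with 18 and 20 of 21 genes below 0. Of all genes, 2615 of 4654 lay below 0 with sunitinib and 2157 of 3899 with vehicle. At least 1.5-fold lower were 3 of the 21 with sunitinib and 6 of the 21 with vehicle, and 0 were as much higher in either library. B2m, the invariant light chain of class I, stood at 1203 CPM in members and 1740 CPM in cells with Cd74 with sunitinib, and at 1815 and 2590 CPM with vehicle. Heat shock genes and YAP and TEAD targets had medians between -0.24 and -0.01 in this comparison. Beside the members, the cells with Cd74 held 5 UMIs of the 14 macrophage markers with sunitinib and 49 with vehicle, and their greater depth and these markers were not tested as sources of the differences.

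The members of the sunitinib and vehicle libraries were then compared gene by gene, on sums of 885494 and 278200 UMIs. A gene counted as measured with at least 50 UMIs over both sums, and 3328 of 32285 did. Of these, 15.5% were at least 1.5-fold higher with sunitinib (517 genes) and 6.34% at least 1.5-fold lower (211 genes), and the median log2 ratio was 0.12. In cells with Cd74, which were more numerous with vehicle, these shares were 9.27% and 4.28% of 5070 genes, and over all endothelial cells 8.61% and 3.32% of 6479 genes. Without the vehicle member of 6 capillary markers, an alternative chosen after seeing the data, 512 of 3305 genes were higher and 195 lower in members. With free RNA of the smooth muscle profile subtracted, 505 of 3215 genes were higher and 203 lower. The members' vehicle sum was the smaller, so a gene could pass the minimum on sunitinib UMIs alone. The highest ratios given below rest on 2 to 11 vehicle UMIs. Of 31 gene lists with at least 5 measured genes, 5 had a median at least 0.32 from 0, which is used here for description only.

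Interferon response genes were lower with sunitinib. Of 50 listed genes 20 were measured; 10 of them were at least 1.5-fold lower, none was as much higher, and 18 lay below 0, where 6.34% and 15.5% of all measured genes were so called. Their median log2 ratio was -0.63, against 0.12 over all measured genes. Ly6c1, a small surface protein that interferon raises in mouse endothelium, stood at 273 CPM with sunitinib and 917 CPM with vehicle (log2 ratio -1.75, interval -2.01 to -1.49). It was counted in 63 of 131 sunitinib members and 25 of 42 vehicle members. At 3000 UMIs per cell it was in 49.4% (38.7 to 60.2) and 71.9% (53.3 to 86.3), with intervals that overlap. In cells with Cd74 at that depth, Ly6c1 was in 42.6% (29.2 to 56.8) with sunitinib and 49.5% (38.9 to 60.0) with vehicle. It was thus not lower in members than in cells with Cd74, unlike the interferon list as a group. The neighbouring gene Ly6a, known as Sca-1, stood at 286 CPM with sunitinib and 780 CPM with vehicle (-1.45, -1.72 to -1.18). At 3000 UMIs per cell Ly6a was in 34.8% and 53.1%, again with intervals that overlap. Both were near 0 in smooth muscle cells, at 0.117 CPM or below. Fibroblast markers moved the same way: the 10 listed genes summed to 480 CPM in sunitinib members (8 detected, Pdgfra and Dpt at 0) and 748 CPM in vehicle members (9 detected, Lum at 0). Of 4 measured, 2 were lower and 1 higher, at a median of -0.65. In the vehicle library their median was 0.70 in members over cells with Cd74, and their part in the Ly6 results was not tested. Genes of the Ly6 family resemble each other, and the sources used here do not say how reads were divided among them.

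Defence genes of the list were mostly lower by summed UMIs. Isg15, a ubiquitin-like protein that is joined to other proteins, stood at 31.6 CPM with sunitinib and 79.1 CPM with vehicle (-1.32, -2.18 to -0.45; 28 and 22 UMIs), and at -0.79 without the richest cell of each library. The interferon-inducible GTPase gene Iigp1 stood at 137 and 313 CPM (-1.19, -1.60 to -0.78). Guanylate-binding protein genes differed among themselves, with Gbp2 at -0.96, Gbp7 at -0.95, Gbp4 at -0.81 (-0.36 without the richest cells) and Gbp3 at 0.17, and close relatives in this family can share reads. The transcription factor Irf1 stood at -0.70 with an interval that reached 0.04 (-0.32 without the richest cells). With every member thinned to 3000 UMIs, Isg15 was found in 9 of 89 sunitinib cells and 3 of 32 vehicle cells, or 10.1% and 9.38%. Gbp2 was found in 16 and 7 of these cells, so the shares of cells with these defence genes did not differ beyond their intervals at equal depth.

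The interferon genes were also read in endothelial cells with Cd74, which share the libraries but no cell with the members. There the interferon list had a median of -0.47, with 11 of 35 measured genes at least 1.5-fold lower and 1 higher, where 4.28% and 9.27% of all genes were so called. Gbp2 stood at -0.95 there and -0.96 in members, Ly6a at -0.67 and -1.45, and Ly6c1 at -0.47 and -1.75. In every one of the 17 alternatives the interferon median in members stayed at or below -0.36, and the lowest was -0.85 in cells of at least 5000 UMIs.

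**Figure D3:**
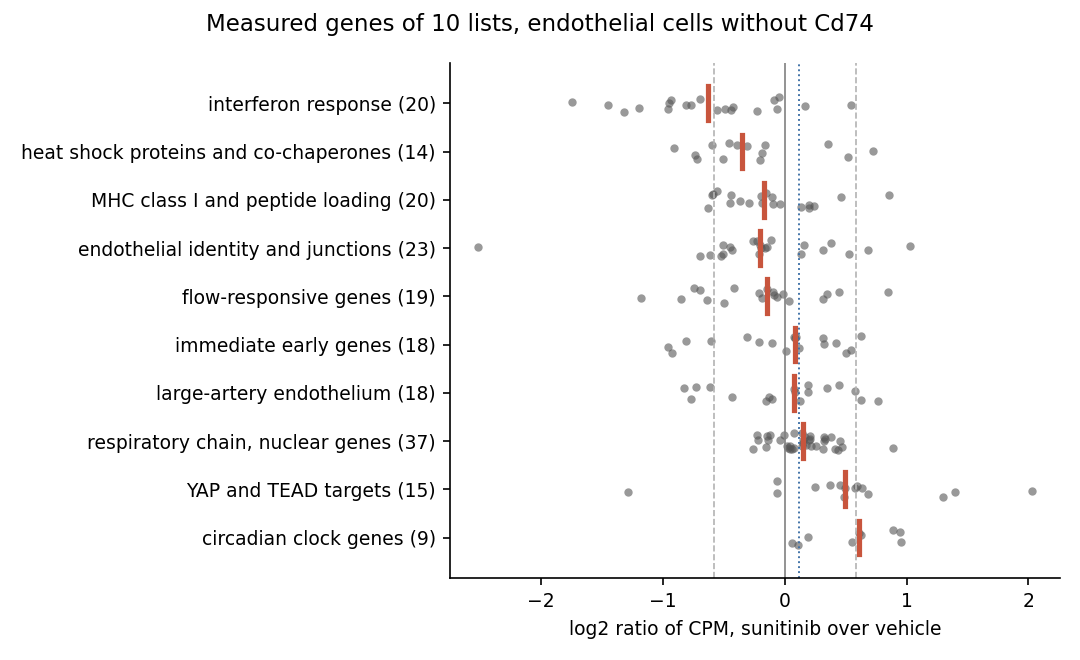
Log2 ratio of CPM, sunitinib over vehicle (horizontal axis), for each measured gene of 10 lists in endothelial cells without Cd74; the number of measured genes is in brackets. Red bars are list medians, the dotted blue line the median of all measured genes (0.12) and dashed grey lines mark 1.5-fold; the interferon median was -0.63 and the circadian median 0.61.

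The start regions of interferon genes are shown because these genes, many with a known response element near their start, are the list described above. The core of the interferon-stimulated response element, which was taken as GAAA, any 2 bases and GAAA on either strand, was present in 3.44% of 32851 RefSeq promoter windows (GRCm38.p6, from 250 bases before to 50 bases after the start). It was present in 10 of the 14 measured interferon genes that had a window and in 23 of all 38 listed genes with one. A gene counted here if any of its windows matched, so shares of genes and of windows are unlike measures. Below are Isg15 (chr4:156200769-156201068, minus strand) and Gbp2 (chr3:142620413-142620712, plus strand), 5' to 3' on the strand of the gene, with matches in capitals. A match is a run of letters and not a shown site of binding.
Isg15: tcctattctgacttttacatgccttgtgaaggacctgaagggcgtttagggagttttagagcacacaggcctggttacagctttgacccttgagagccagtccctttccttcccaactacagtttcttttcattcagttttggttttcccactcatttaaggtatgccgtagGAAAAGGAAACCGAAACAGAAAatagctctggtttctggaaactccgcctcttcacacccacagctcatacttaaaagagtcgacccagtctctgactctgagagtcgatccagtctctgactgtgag
Gbp2: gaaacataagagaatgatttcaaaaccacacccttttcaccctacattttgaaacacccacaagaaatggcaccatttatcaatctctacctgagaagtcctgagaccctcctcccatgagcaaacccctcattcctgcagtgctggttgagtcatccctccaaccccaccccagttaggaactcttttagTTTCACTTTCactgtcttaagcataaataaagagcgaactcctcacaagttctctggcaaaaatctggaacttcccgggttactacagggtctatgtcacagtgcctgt
Isg15 held 3 overlapping matches, beginning 78, 72 and 66 bases before the start, and Gbp2 held 1 at 59 bases before it, on the other strand.

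Genes that flow sustains were mixed. Of 19 measured flow-responsive genes, 5 were at least 1.5-fold lower with sunitinib and 1 higher, at a median of -0.14, where 6.34% and 15.5% of all measured genes were so called. In cells with Cd74, 1 of 19 was lower and 1 higher. Pi16 (-1.18), the lowest of the list in members, is on the fibroblast list too. Klf2 (chromosome 8, 72319033 to 72321656, plus strand, GRCm38) stood at 1641 CPM with sunitinib and 2958 CPM with vehicle (-0.85, -0.97 to -0.73). It was counted in 101 of 131 sunitinib members and 38 of 42 vehicle members, but at 3000 UMIs per cell the shares were 83.1% and 81.2%, which do not differ beyond their intervals. A single vehicle cell gave 209 of 823 vehicle UMIs, and without the richest cell of each library the ratio was -0.51, as it was in cells with Cd74. Klf4, its close relative, stood at 819 CPM with sunitinib and 873 CPM with vehicle and did not differ beyond its interval (-0.30 to 0.12).

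Nos3 stood at 279 CPM with sunitinib and 453 CPM with vehicle (-0.70, -1.01 to -0.38), and at -0.53 without the richest cell of each library; it is overlapped by Atg9b on the other strand. In cells with Cd74 it stood at 343 and 357 CPM (-0.06, -0.28 to 0.15). The intervals of the cells without and with Cd74 did not overlap, but they leave out spread between cells. No difference between the kinds of cell is therefore read from them. At equal depth, Nos3 was in 51.7% of sunitinib members (40.8 to 62.4) and 71.9% of vehicle members (53.3 to 86.3), with intervals that overlap. Gja5, the connexin 40 of arterial gap junctions, was lower in both kinds of cell, at -0.82 in members and -0.52 in cells with Cd74. Edn1, which encodes the vasoconstrictor precursor of endothelin, stood the other way, at 1221 CPM with sunitinib and 820 CPM with vehicle in members (0.57, 0.37 to 0.79). Ace, which makes angiotensin II, was at 721 and 482 CPM (0.58, 0.31 to 0.86). Cyp1b1, a flow-induced cytochrome, was the highest flow gene at 0.85, whereas it stood at -0.21 in cells with Cd74.

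Genes listed as mechanosensitive channels were few and thinly counted. Of 20 listed genes 6 were measured, and 2 of these were at least 1.5-fold lower and 0 higher, at a median of -0.36, where 6.34% and 15.5% of all genes were so called. Piezo1, a stretch-gated cation channel, stood at 55.3 CPM with sunitinib (49 UMIs) and 86.3 CPM with vehicle (24 UMIs), at -0.64 with an interval of -1.37 to 0.13. Kcnn4, a calcium-gated potassium channel, stood at 54.2 and 104 CPM (-0.94, -1.64 to -0.23) and at -0.79 in cells with Cd74. The list median turned to 0.02 over all endothelial cells, whatever their Cd74, and to 0.15 with a minimum of 100 UMIs, which left 1 gene.

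**Figure D4:**
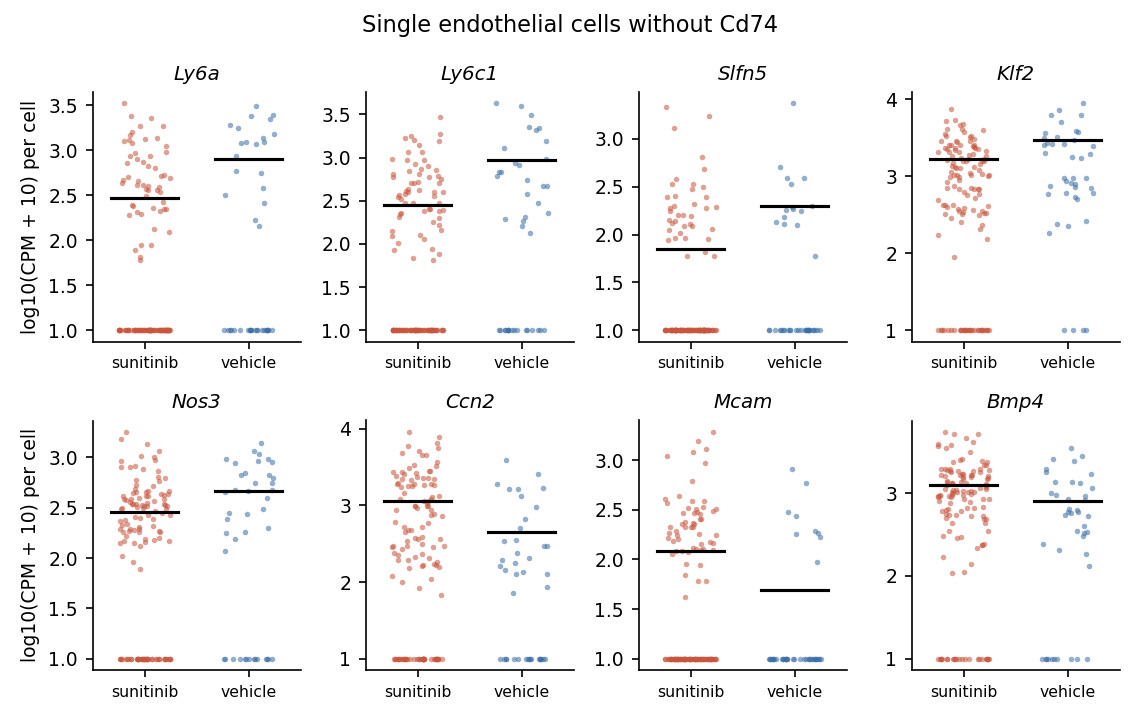
Level of 8 genes in each endothelial cell without Cd74, as log10(CPM + 10) (vertical axis; 1 is a cell with no UMI), for 131 sunitinib cells (red, left) and 42 vehicle cells (blue, right). Black bars mark the CPM of the summed UMIs; for Klf2 these are 1641 CPM with sunitinib and 2958 CPM with vehicle, and the cells of both libraries overlap for every gene.

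Targets of YAP and TEAD were higher with sunitinib. Of 26 listed genes 15 were measured, of which 6 were at least 1.5-fold higher and 1 lower, at a median of 0.49; 15.5% and 6.34% of all genes were so called. Ccn2, a matricellular growth factor (chromosome 10, 24595442 to 24598683, plus strand), stood at 1144 CPM with sunitinib and 435 CPM with vehicle (1.40, 1.12 to 1.68). It was higher in cells with Cd74 too, at 1290 and 303 CPM (2.09, 1.92 to 2.26). Smooth muscle cells held 3311 and 3232 CPM of Ccn2, and with free RNA of that profile subtracted the members' ratio was 1.45. With every member thinned to 3000 UMIs, 53 of 89 sunitinib cells and 11 of 32 vehicle cells held a Ccn2 UMI, or 59.6% and 34.4%. Ccn1 stood at 1857 CPM with sunitinib and 1244 CPM with vehicle (0.58, 0.41 to 0.75). Ajuba, a LIM protein that restrains the Hippo kinases, was counted 52 times with sunitinib and 4 times with vehicle (2.03, 0.59 to 3.96), and it stood at -0.31 in cells with Cd74. Gadd45b, a stress gene, was the lone gene that was lower (-1.29, -1.72 to -0.85). The list median lay between 0.34 and 0.58 in the 17 alternatives, and it was 0.26 in cells with Cd74. There 2 of 16 genes were higher and 1 lower, where 9.27% and 4.28% of all genes were so called, a share of higher genes near that of all genes.

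The letters of the TEAD core, GGAATG on either strand, were present in 14.7% of all promoter windows. They were present in 6 of 13 measured genes of the list with a window and in 8 of all 18 listed genes with one. Here too a gene counted if any of its windows matched, so the shares of genes and of windows are unlike measures. Ajuba (chr14:54577612-54577911, minus strand) and Ccn1 (chr3:145649936-145650235, minus strand) are shown because the first had the highest ratio of the list and the second the most UMIs, with matches in capitals. Here too a match says nothing of binding.
Ajuba: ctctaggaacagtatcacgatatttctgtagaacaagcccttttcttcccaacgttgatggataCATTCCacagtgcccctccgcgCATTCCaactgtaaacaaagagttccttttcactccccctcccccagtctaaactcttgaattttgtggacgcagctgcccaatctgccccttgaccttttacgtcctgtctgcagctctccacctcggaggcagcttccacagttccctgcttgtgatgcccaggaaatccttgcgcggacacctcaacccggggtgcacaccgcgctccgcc
Ccn1: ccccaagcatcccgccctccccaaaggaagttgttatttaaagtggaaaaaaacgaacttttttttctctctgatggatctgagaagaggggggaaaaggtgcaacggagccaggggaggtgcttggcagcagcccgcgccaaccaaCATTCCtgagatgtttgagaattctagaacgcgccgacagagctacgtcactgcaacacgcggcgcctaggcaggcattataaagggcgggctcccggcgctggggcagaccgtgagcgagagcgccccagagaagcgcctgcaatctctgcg
Ajuba held 2 matches, beginning 186 and 164 bases before the start, and Ccn1 held 1 at 103 bases before it.

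Matrix and adhesion genes differed in both directions. Thbs1, the matricellular protein thrombospondin 1, stood at 2043 CPM with sunitinib and 845 CPM with vehicle (1.27, 1.08 to 1.48), and at 0.84 in cells with Cd74. Mcam, the adhesion molecule CD146, stood at 113 and 39.5 CPM (1.51, 0.61 to 2.56), although smooth muscle cells held 442 and 385 CPM of it. Emcn, a sialomucin of the endothelial surface, stood at 242 and 119 CPM (1.03, 0.49 to 1.60) and at 0.56 in cells with Cd74. Cldn5, the main claudin of endothelial tight junctions, was lower, at 386 and 590 CPM (-0.61, -0.88 to -0.33; -0.47 without the richest cells). Mgp, a matrix inhibitor of calcification and of BMP signals, stood at 7701 and 11769 CPM (-0.61, -0.67 to -0.55; -0.35 without the richest cells), and at -0.10 in cells with Cd74. Bmp4 stood at 0.63 (0.42 to 0.84) in members and 0.23 (0.11 to 0.35) in cells with Cd74, so the intervals did not overlap. The 23 measured genes of endothelial identity had a median of -0.21, with 2 higher and 3 lower. The 18 measured genes of large arteries had a median of 0.08, with 2 higher and 4 lower. Over all measured genes, 15.5% were called higher and 6.34% lower. Over genes with at least 100 UMIs, 11.5% were called higher and 4.62% lower. The called genes of both lists were few, so nothing is read from how their shares differ from those of all genes.

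VEGF receptors, which sunitinib blocks, were thinly read. Flt1, VEGF receptor 1, had the lowest ratio of the genes picked by size of ratio, at 28.2 CPM with sunitinib (25 UMIs) and 162 CPM with vehicle (45 UMIs), a log2 ratio of -2.52 (-3.29 to -1.78). A single vehicle cell gave 12 of the 45 UMIs, and without the richest cell of each library it stood at -2.26. In cells with Cd74 it stood at 38.6 and 56.2 CPM (-0.54, -1.18 to 0.07). Kdr, VEGF receptor 2, had 1 UMI with sunitinib and 2 with vehicle, and Flt4, VEGF receptor 3, had 10 and 2, so neither could be compared. The angiopoietin receptor Tek stood at 414 and 464 CPM (-0.16, -0.46 to 0.14). Pdgfb, the ligand with which endothelium recruits mural cells, stood at 112 CPM with sunitinib and 43.1 CPM with vehicle (1.37, 0.51 to 2.37), and at 0.77 in cells with Cd74.

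The other lowest ratios came from genes of several kinds. Receptor kinase and ERK feedback had 1 of 4 genes lower and 0 higher (median -0.08), and integrated and ER stress 1 of 12 lower and 0 higher (median -0.21). Of p53 targets 3 of 7 were lower and 1 higher (median -0.16). Of glucocorticoid-induced genes 5 of 16 were lower and 3 higher (median -0.06). Of all measured genes 6.34% were as much lower and 15.5% as much higher. Hbegf, an EGF receptor ligand, stood at 57.6 CPM with sunitinib and 277 CPM with vehicle (-2.26, -2.80 to -1.74), and at -1.02 in cells with Cd74. The cell cycle inhibitor Cdkn1a stood at 52.0 and 252 CPM (-2.28, -2.85 to -1.72), and at -0.23 in cells with Cd74, where the interval included 0. Dusp6, a phosphatase that ERK signals raise, stood at 29.4 and 93.5 CPM (-1.67, -2.51 to -0.83), and at 0.17 in cells with Cd74. Plat, the tissue plasminogen activator, stood at 33.9 and 104 CPM (-1.62) and Slc9a3r2, a scaffold of membrane transporters, at 212 and 536 CPM (-1.33, -1.65 to -1.01). Slfn5, a Schlafen family gene that is on none of the lists, stood at 61.0 CPM with sunitinib and 187 CPM with vehicle (-1.62, -2.19 to -1.04). A single vehicle cell gave 19 of its 52 vehicle UMIs, without the richest cell of each library the ratio was -1.07, and at 3000 UMIs per cell it was in 19.1% and 18.8% of cells. It is overlapped by the antisense gene Slfn5os. The rest were Pdlim4 (-1.67), Col8a1 (-1.57) and Ccdc88a (-1.41).

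**Figure D5:**
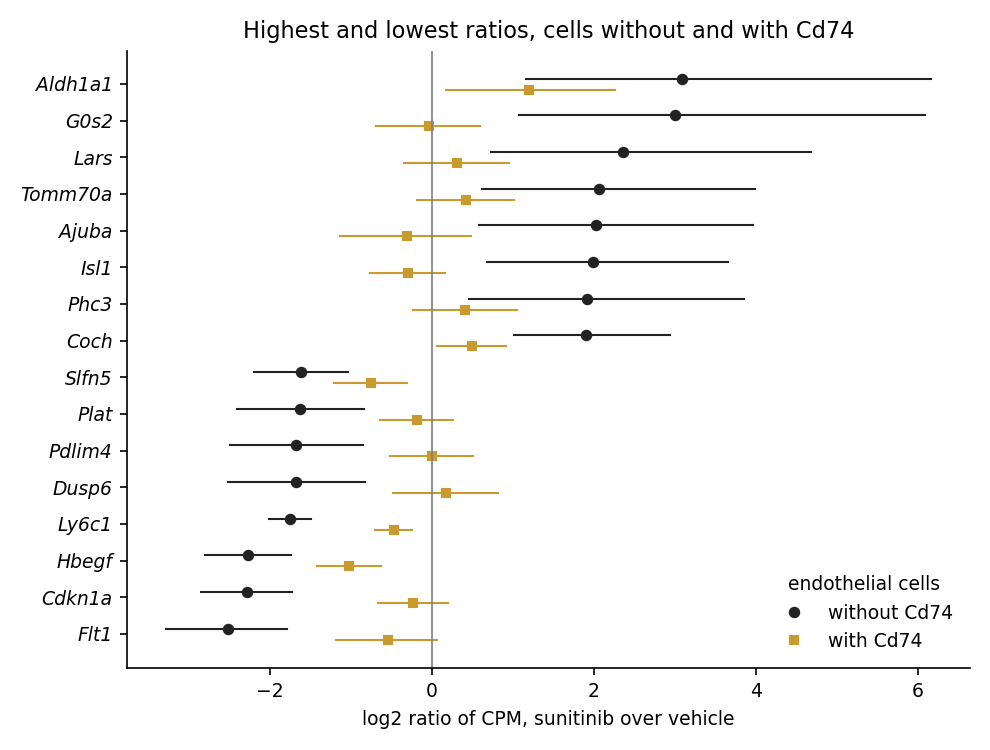
Log2 ratio of CPM, sunitinib over vehicle (horizontal axis), of the 8 highest and 8 lowest named genes in endothelial cells without Cd74 (black circles) and in those with Cd74 (yellow squares), with exact conditional binomial 95% intervals. Flt1 stood at -2.52 without and -0.54 with Cd74, and Aldh1a1 at 3.08 and 1.19; all 16 ratios lay nearer 0 in the cells with Cd74, and the genes were picked on the cells without it.

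The highest ratios rested on few vehicle UMIs. Aldh1a1, which makes retinoic acid, had 54 UMIs with sunitinib and 2 with vehicle (3.08, 1.16 to 6.17), and 1.19 (0.18 to 2.27) in cells with Cd74. G0s2, an inhibitor of fat breakdown, had 51 and 2 UMIs (log2 interval 1.08 to 6.09), both vehicle UMIs from 1 cell, and it stood at -0.04 in cells with Cd74. Isl1, a homeodomain factor of the heart field, had 63 and 5 UMIs (1.98, 0.69 to 3.66), and it turned to -0.07 over all endothelial cells. Cirbp, a cold-inducible RNA-binding protein, had 78 and 7 UMIs (1.81, 0.70 to 3.17) and a like ratio in cells with Cd74 (1.53, 0.99 to 2.08). Coch, an extracellular protein, had 131 and 11 UMIs (1.90), of which 1 sunitinib cell gave 39. Others were Lars (2.36), Tomm70a (2.06), Ajuba, Phc3 (1.91), Idh3b (1.85) and Prkacb (1.84), with vehicle counts of 3 to 5 UMIs.

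Clock genes were higher and chaperones lower, each less firmly than the lists above. Of 9 measured circadian genes 5 were at least 1.5-fold higher with sunitinib and 0 lower, at a median of 0.61, where 15.5% and 6.34% of all genes were so called. In cells with Cd74, 1 of 11 was higher and 1 lower, where 9.27% and 4.28% of all genes were so called. The clock output factors Tef (167 CPM with sunitinib and 86.3 CPM with vehicle; 0.95, 0.33 to 1.64) and Dbp (133 and 71.9 CPM; 0.89, 0.20 to 1.65) led with the repressor Cry2 (0.94, -0.15 to 2.23). Dbp turned to -0.11 when each cell counted equally. The list median was 0.28 in cells with Cd74 and 0.23 in members thinned to 3000 UMIs, and the hour of tissue collection is not given in the labels. Of 14 measured heat shock genes, 4 were lower and 1 higher, at a median of -0.35, where 6.34% and 15.5% of all genes were so called. Hspa8, the constitutive 70-kilodalton chaperone, stood at 785 and 1305 CPM (-0.73, -0.92 to -0.55), and smooth muscle cells held 2567 and 3715 CPM. Hsph1 stood at -0.91 (-1.69 to -0.10) and Hspb1 at -0.72, whereas Hspa4 was highest at 0.72. The heat shock median was -0.06 when each cell counted equally and -0.19 without the richest cells.

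Several other groups had medians less than 0.32 from 0. Of all measured genes 15.5% were called higher and 6.34% lower, and some of these groups had larger shares of called genes than that. The 37 nuclear genes of the respiratory chain had a median of 0.15, with 1 higher and 0 lower. Immediate early genes had a median of 0.08, with 1 of 18 higher and 4 lower, among them Nr4a1 at 139 and 270 CPM (-0.96, -1.38 to -0.52). Class I and peptide-loading genes had a median of -0.17, with 1 of 20 higher and 3 lower, and B2m was among the lower (-0.59, -0.75 to -0.44; -0.54 without the richest cells). Of 10 leukocyte adhesion genes 2 were higher and 0 lower, at a median of -0.12. Metallothionein ratios had opposite signs in the kinds of cell, with intervals for counting error only. Mt1 stood at -0.91 (-1.12 to -0.71) in members and 0.67 (0.51 to 0.84) in cells with Cd74, and Mt2 at -1.25 and 0.47. Of endothelial-to-mesenchymal genes 4 of 13 were higher and 2 lower (median 0.32, just under the size used above). The higher ones included Acta2, at 733 and 306 CPM in members but 25814 and 21821 CPM in smooth muscle cells, and Tagln, at 782 and 223 CPM against 15748 and 13901 CPM. The lowest was S100a4 (-1.69, -2.20 to -1.18).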

How the data were processed

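The authors deposited UMI counts per gene and cell, made with Cell Ranger 6.0.0 for both libraries compared, per the file headers, on mm10, per the submitters' processing notes, which also name Seurat. The annotation, strand setting and use of introns are not given in the sources used here. Counts of member cells were summed per library and scaled to CPM. Log2 ratios are sunitinib over vehicle with exact conditional binomial 95% intervals; a count of 0 was set to a floor of 3. CPM intervals are exact Poisson and shares exact binomial (Clopper-Pearson). All cover counting error only. A gene needed 50 UMIs over both sums; called means at least 1.5-fold. The members and 40 gene lists were chosen with earlier results of these data known.

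Named genes were the 12 highest and 12 lowest ratios among measured genes found in at least 15% of members of 1 library and with a CPM of at least 0.5 times that of smooth muscle cells, the markers, VEGF and angiopoietin receptors and class II genes, and the 2 highest and 2 lowest of each list; a few of these are not reported here. Other genes, and the comparison with cells holding Cd74 within a library, were chosen after values were seen. Doublets were not removed; an alternative left out the highest Scrublet scores (138 sunitinib and 125 vehicle cells, of which 1 and 0 were members). Alternatives also changed scaling, minimum counts, cell filters and depth. The ratio and its interval were tested on simulated sums with counting error only. That test had no spread between cells and so cannot show how the calls behave with it. Python 3.11.15 (numpy 2.4.6, scipy 1.17.1, scanpy 1.11.5) and R 4.3.3 with edgeR 4.0.16 (TMM factors only) were used. The library from mice given sunitinib and Yoda1 was not compared.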

Additional observations from a re-analysis of the deposited data

Results flagged for a closer look

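In the library labelled Yoda1, which the series' design gives as sunitinib with Yoda1 and which enters no comparison here, 319 of 354 endothelial cells chosen by the same rule held no Cd74 UMI, a share of 90.1% (exact binomial interval 86.5 to 93.0). The share in the sunitinib library was 68.9% and in the vehicle library 28.4%. The rule cut on this share, so the values are a description and nothing is read from them. The cells of the Yoda1 library differed from the members in other genes too. They held 646 CPM of Cytl1 and 78.1 CPM of Bmp4, but 1125 CPM of Gpihbp1, 2997 CPM of Cd36, 1652 CPM of Flt1 and 806 CPM of Kdr. Haemoglobin made up 3.70% of their UMIs, their median was 4382 UMIs per cell, and the library was counted with Cell Ranger 7.1.0. The part of these differences in the share was not tested.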

How the results depend on the processing

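No paired analysis was possible because each group was 1 library, and for the same reason no library could be left out. Counts of genes at least 1.5-fold higher (517) and lower (211) with sunitinib depended on the minimum count, at 1364 and 586 with 20 UMIs, 201 and 81 with 100 UMIs and 2380 and 1950 with none; thinning every cell to 3000 UMIs gave 132 and 72. The lower count was 338 when each cell counted equally and 112 without the richest cell of each library for each gene, an alternative chosen after seeing the data. In the sunitinib library 59.8% of endothelial cells of at least 5000 UMIs held no Cd74 (70 of 117; 68.9% over all cells), and in the vehicle library 38.4% after thinning (28.4% over all cells). The median of mechanosensitive channels, -0.36, reversed to 0.15 with a minimum of 100 UMIs, which left 1 gene, and to 0.015 over all endothelial cells. Isl1 reversed to -0.074 over all endothelial cells and Dbp to -0.11 when each cell counted equally. Where not stated, the cause was not tested. Of 629 single-gene values under 17 alternatives for 45 genes, 569 stayed within the counting interval, 58 moved beyond it and these 2 reversed. The median of all genes was 0.12, 0.06 with TMM or median-of-ratios scaling and 0.25 without the richest cells. The 42 vehicle cells, with 278200 UMIs, set the precision.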
